A study of Drosophila melanogaster with 6 samples.

Results

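The germ plasm and pole-cell genes described here are 10 genes taken by their CG identifiers: osk, vas, tud, aub, piwi, nos, pgc, gcl, orb and ovo. All 10 were among the 9073 genes of the deposited table, so 10 of 9073 rows were taken, with no threshold on their values. Poly(A) RNA was sequenced from whole late-blastoderm Drosophila embryos of the wild-type stock Oregon R. The 3 libraries called dsRNA here came from embryos injected with a mixture of double-stranded RNAs against even-skipped (eve) and runt (run), at 1 µg/µl each. The 3 water libraries came from embryos of the same stock injected with water. In both groups eggs 0 to 1 h old were injected before cell formation, kept at 18 °C and picked by stage as the pole cells began to move, before the ventral furrow formed, with about 50 embryos in each replicate. The comparison asks which transcripts depend on Eve and Runt, pair-rule transcription factors of the segmented trunk.

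Germ plasm is cytoplasm at the posterior pole of the egg, built during oogenesis, that holds maternal RNAs and proteins. The nuclei that enter it are enclosed as pole cells, the precursors of eggs and sperm, and for a time these cells keep their own transcription largely switched off. Many maternal RNAs are degraded in the rest of the embryo as zygotic transcription starts, while copies in the germ plasm are protected. The 10 genes are known mainly for RNAs that the mother loads into the egg. A whole-embryo library does not separate pole cells from the remaining embryo, and fewer pole cells and less RNA per pole cell cannot be told apart.

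Gene reads numbered 23234425 to 49364110 per library, of which the 10 genes had 267 to 7021 each. Levels are normalised read counts, that is reads divided by a scaling factor for each library. Log2 fold changes are those of dsRNA over water after 1 was added to each normalised count, a step that shrinks differences at low read numbers. Of the targeted genes, run stood at 1733 to 1975 in dsRNA libraries and at 2220 to 3557 in water libraries, and eve stood at 2325 to 2922 in dsRNA and at 1699 to 3075 in water. Neither passed the test described below: run had a log2 value of −0.64 ± 0.18 and eve one of 0.11 ± 0.23 (SE; limma adjusted p = 0.999 for both), so that mean eve RNA was not lower in dsRNA libraries. Water replicate 2 stood apart from the other 5 libraries, with a first principal component score of 60.6 against −27.7 to 5.61. Compared with each of water replicates 1 and 3, it was higher in 10 of 13 maternal RNAs of a list, against 42.6% of all genes, and lower in 9 of 9 later zygotic genes, against 42.7%. Fold changes of the 10 genes, and of the related genes named, are given with and without it.

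None of the 10 genes differed between dsRNA and water libraries past the threshold, a Benjamini-Hochberg adjusted p under 0.05 over all genes in limma's moderated test. Across all genes 1 passed, or 0.011%, which was noc. With the replicate number as a block 0 genes passed. Before adjustment, limma gave a p under 0.05 for 0 of 10 members and 206 of all genes, or 2.27%, and with the block 0 of 10 members and 348 of all genes, or 3.84%. The 3 dsRNA and 3 water values overlapped in each of the 10 genes, whereas they did not overlap for 6.35% of all genes, 2.99% higher and 3.36% lower in dsRNA. Log2 fold changes of dsRNA over water were negative for 8 of 10 members, against 50.5% of all genes. Their median was −0.12, and that of all genes was −0.002. Without water replicate 2 the number of negative values was 4 of 10, against 56.6% of all genes, and the medians were 0.01 and −0.03. The direction of the list thus turned with that library. Between libraries of the same replicate number, aub was higher in dsRNA in 3 of 3 pairs, as were 10.7% of all genes, and tud and ovo were lower in 3 of 3, as were 14.4%. For the other 7 members the pairs differed in direction. With the replicate number as a block the log2 fold changes were 0.17 ± 0.07 for aub, −0.15 ± 0.09 for tud and −0.45 ± 0.22 for ovo (SE; limma adjusted p = 0.898 each).

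**Figure D1:**
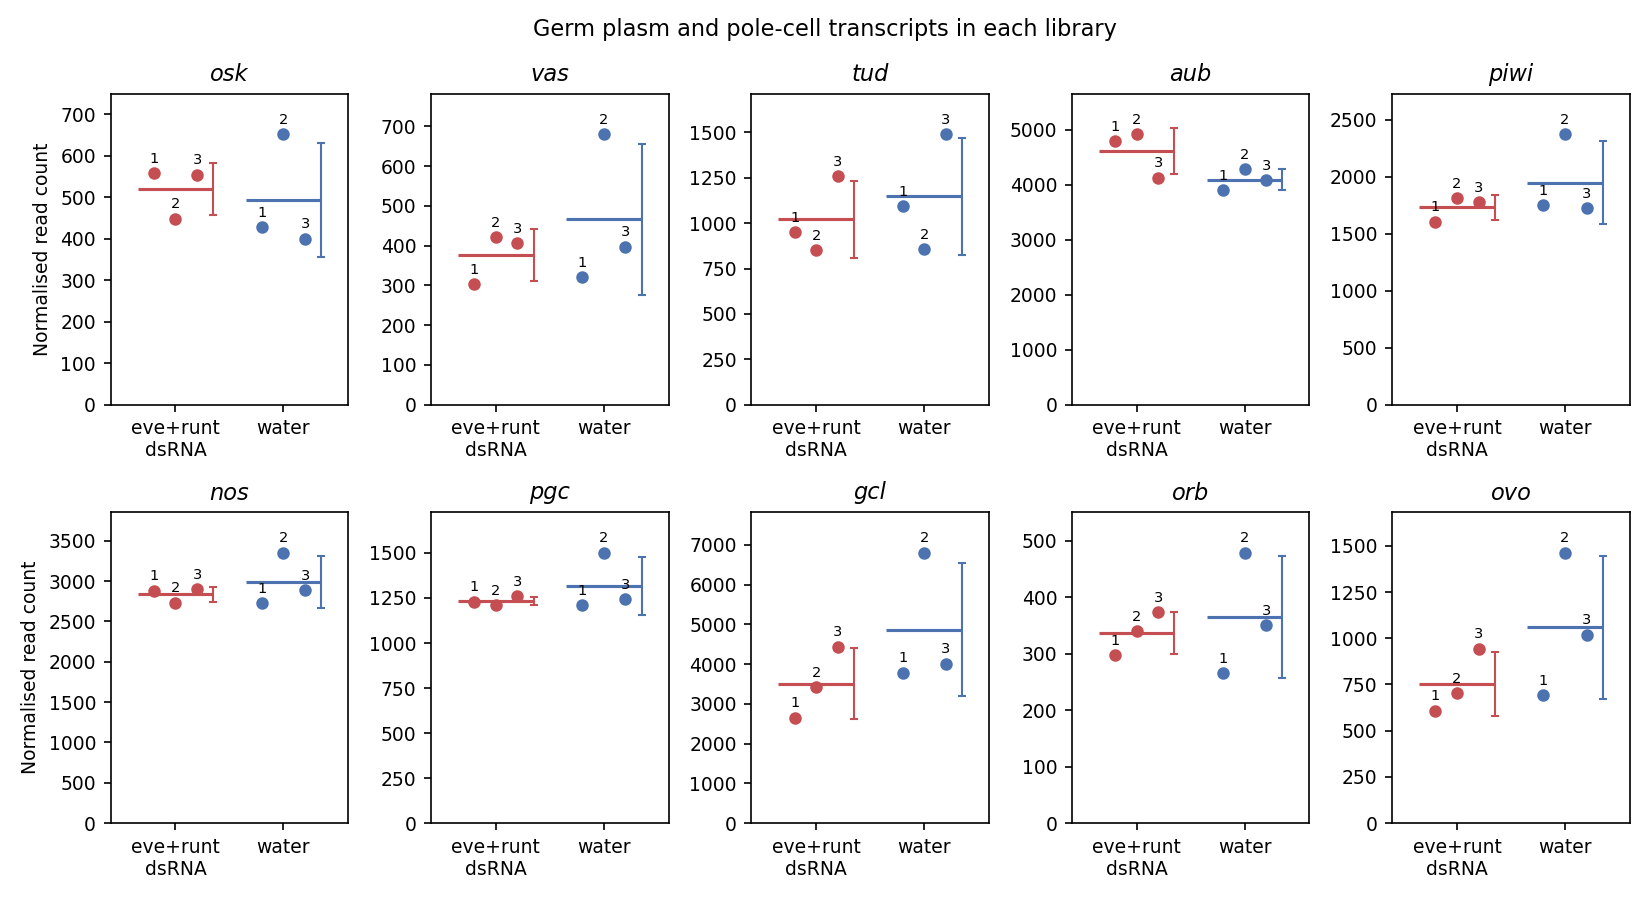
Normalised read counts of the 10 genes (vertical axes, linear from 0), with dsRNA libraries in red on the left of each panel and water libraries in blue on the right. Points are single libraries labelled by replicate, horizontal lines are group means and vertical bars are ± 1 SD (n = 3 each). Water replicate 2 is the highest point for 8 of the 10 genes, and the groups overlap in every panel.

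Oskar starts the assembly of germ plasm and recruits its other components. Its gene osk (CG10901; BDGP6 chromosome 3R, 8935126 to 8938395, plus strand) had 558, 448 and 554 normalised counts in dsRNA replicates 1, 2 and 3, against 428, 652 and 400 in water replicates 1, 2 and 3. The dsRNA values lay between the low pair of water libraries and water replicate 2. Means were 520 ± 62.3 in dsRNA and 493 ± 138 in water (SD, n = 3 each). The log2 fold change of dsRNA over water was 0.10 ± 0.22 (SE; 95% confidence interval −0.42 to 0.62; limma adjusted p = 0.999). Without water replicate 2 the log2 fold change was 0.32 ± 0.15 (limma adjusted p = 0.891) and every dsRNA value was above both remaining water values, as also for 7.95% of all genes. Without water replicate 3 it was −0.03 ± 0.23. An annotated non-coding RNA on the same strand (lncRNA:osk) shares 78.5% of the osk exon bases, and reads on these bases cannot be assigned from a count per gene. The osk count may include reads of the non-coding form. If that form was in the annotation used for counting, reads on the shared bases may instead be missing from the osk count.

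Vasa is a DEAD-box RNA helicase held in germ plasm and the most widely used mark of the fly germ line. Counts for vas (CG3506; BDGP6 chromosome 2L, 15061656 to 15074311, plus strand) were, after normalisation, 303, 421 and 406 in dsRNA replicates 1 to 3, against 320, 681 and 397 in water replicates 1 to 3. In each group replicate 1 was the lowest, and water replicate 2 was 1.90-fold above the mean of the other water libraries, the widest such ratio among the 10 genes. Means were 377 ± 64.7 in dsRNA and 466 ± 190 in water (SD, n = 3 each). On the log2 scale the difference, dsRNA over water, was −0.25 ± 0.30 (SE; 95% confidence interval −0.96 to 0.47; limma adjusted p = 0.999). It was 0.06 ± 0.20 without water replicate 2. The gene solo shares 24.6% of the vas exon bases on the same strand, and reads in the shared part cannot be assigned from a count per gene.

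Tudor is a scaffold protein whose Tudor domains bind methylated Piwi-family proteins in germ plasm. Its gene tud (CG9450; BDGP6 chromosome 2R, 21183322 to 21192913, plus strand) had 950, 852 and 1260 normalised counts in dsRNA replicates 1 to 3, against 1094, 856 and 1490 in water replicates 1 to 3. In both groups replicate 2 was the lowest and replicate 3 the highest, and tud was the member of the 10 for which water replicate 2 lay under water replicates 1 and 3. Means were 1020 ± 213 in dsRNA and 1147 ± 321 in water (SD, n = 3 each). The difference on the log2 scale was −0.15 ± 0.24 (SE; 95% confidence interval −0.72 to 0.41; limma adjusted p = 0.999). The value was −0.34 ± 0.20 without water replicate 2 and 0.06 ± 0.21 without water replicate 3.

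Aubergine and Piwi are Piwi-family Argonaute proteins that carry piRNAs, small RNAs that silence transposons in the germ line; Aubergine acts in the cytoplasm and germ plasm and Piwi mainly in the nucleus. Their genes lie close together on the minus strand of BDGP6 chromosome 2L, aub at 10997819 to 11001476 and piwi at 10982205 to 10987420. The gene aub (CG6137) had 4786, 4921 and 4127 normalised counts in dsRNA replicates 1 to 3, against 3903, 4283 and 4082 in water replicates 1 to 3. The dsRNA replicates 1 and 2 were above every water library, and dsRNA replicate 3 lay among them. Means were 4611 ± 425 in dsRNA and 4089 ± 190 in water (SD, n = 3 each). The log2 fold change came to 0.17 ± 0.09 (SE; 95% confidence interval −0.03 to 0.37; limma adjusted p = 0.999). Its unadjusted limma p of 0.0898 was the lowest of the 10 genes. Without water replicate 2 the value was 0.20 ± 0.09 (SE; limma adjusted p = 0.891). Every dsRNA value was then above both remaining water values, as for 7.95% of all genes.

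The other Piwi-family gene, piwi (CG6122), had 1606, 1813 and 1778 normalised counts in dsRNA replicates 1 to 3, against 1749, 2374 and 1725 in water replicates 1 to 3. All libraries but water replicate 2 lay within a narrow band. Means were 1732 ± 111 in dsRNA and 1949 ± 368 in water (SD, n = 3 each). As a log2 fold change this was −0.16 ± 0.14 (SE; 95% confidence interval −0.49 to 0.18; limma adjusted p = 0.999), and without water replicate 2 it was −0.01 ± 0.09, with a 95% confidence interval of −0.22 to 0.21. As levels per kb of exon, the ratio of aub to piwi was 3.04, 2.77 and 2.37 in dsRNA replicates 1 to 3, against 2.28, 1.84 and 2.41 in water replicates 1 to 3. The lowest ratio was that of water replicate 2.

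Nanos represses translation and maternal RNAs together with Pumilio in the posterior embryo and in pole cells. The gene nos (CG5637; BDGP6 chromosome 3R, 19157238 to 19160202, plus strand) had 2881, 2731 and 2902 normalised counts in dsRNA replicates 1 to 3, against 2724, 3353 and 2889 in water replicates 1 to 3. Its spread was small, with a highest library only 1.23-fold above the lowest. Means were 2838 ± 93.0 in dsRNA and 2989 ± 326 in water (SD, n = 3 each). The fitted log2 difference was −0.07 ± 0.09 (SE; 95% confidence interval −0.29 to 0.15; limma adjusted p = 0.999). The value was 0.02 ± 0.08 without water replicate 2.

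Polar granule component (pgc) encodes a small protein that blocks transcription elongation in pole cells. The gene (CG32885; BDGP6 chromosome 2R, 22330200 to 22332813, plus strand) had 1228, 1211 and 1260 normalised counts in dsRNA replicates 1 to 3, against 1209, 1502 and 1242 in water replicates 1 to 3. The 3 dsRNA values and the low pair of water values lay almost on top of each other. Means were 1233 ± 24.5 in dsRNA and 1318 ± 160 in water (SD, n = 3 each). Dividing dsRNA by water gave a log2 value of −0.09 ± 0.11 (SE; 95% confidence interval −0.35 to 0.17; limma adjusted p = 0.999). It was 0.01 ± 0.09 without water replicate 2. The gene T3dh on the other strand overlaps 46.9% of the pgc exon bases. Unless the counting used strand, reads on the shared bases cannot be assigned to either gene. They may then be in the deposited row named ambiguous and missing from both counts. T3dh itself had 18.1 to 30.7 normalised counts of its own in dsRNA libraries and 11.6 to 41.7 in water libraries.

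Germ cell-less (gcl) encodes a substrate adaptor of a ubiquitin ligase needed for pole-cell formation, and its RNA is stored in germ plasm. The gene (CG8411; BDGP6 chromosome 2R, 8724258 to 8728999, plus strand) had 2652, 3423 and 4435 normalised counts in dsRNA replicates 1 to 3, against 3788, 6805 and 4012 in water replicates 1 to 3. This was the widest spread of the 10 genes, with a highest library 2.57-fold above the lowest, and dsRNA replicate 3 lay above 2 of the 3 water libraries. Means were 3503 ± 894 in dsRNA and 4869 ± 1681 in water (SD, n = 3 each). The corresponding log2 fold change was −0.45 ± 0.27 (SE; 95% confidence interval −1.11 to 0.20; limma adjusted p = 0.999). The value was −0.19 ± 0.19 without water replicate 2.

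Orb binds the 3′ ends of maternal RNAs and activates their translation during oogenesis. The gene orb (CG10868; BDGP6 chromosome 3R, 23260610 to 23280856, minus strand) had 297, 340 and 373 normalised counts in dsRNA replicates 1 to 3, against 265, 479 and 351 in water replicates 1 to 3. All dsRNA values fell inside the range of the water values. Means were 337 ± 37.9 in dsRNA and 365 ± 107 in water (SD, n = 3 each). In log2 units the change was −0.08 ± 0.24 (SE; 95% confidence interval −0.65 to 0.48; limma adjusted p = 0.999). It turned positive without water replicate 2, at 0.14 ± 0.19, and was 0.01 ± 0.28 without dsRNA replicate 1.

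The locus ovo makes zinc-finger transcription factors of the female germ line and, from other promoters, the epidermal factor Shavenbaby, which a count per gene does not separate. As a whole ovo (CG6824; BDGP6 chromosome X, 5048273 to 5070929, plus strand) had 607, 701 and 944 normalised counts in dsRNA replicates 1 to 3, against 693, 1463 and 1019 in water replicates 1 to 3. In dsRNA libraries replicate 3 was high, and water replicate 1 lay between the low pair of dsRNA values. Means were 751 ± 174 in dsRNA and 1058 ± 387 in water (SD, n = 3 each). The log2 fold change estimated was −0.45 ± 0.30 (SE; 95% confidence interval −1.16 to 0.25; limma adjusted p = 0.999). The value was −0.19 ± 0.23 without water replicate 2. It was −0.73 ± 0.25 without water replicate 1 (SE; limma adjusted p = 0.994). The unadjusted limma p was then 0.0302, in a fit where 216 of 9073 genes had one under 0.05.

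**Figure D2:**
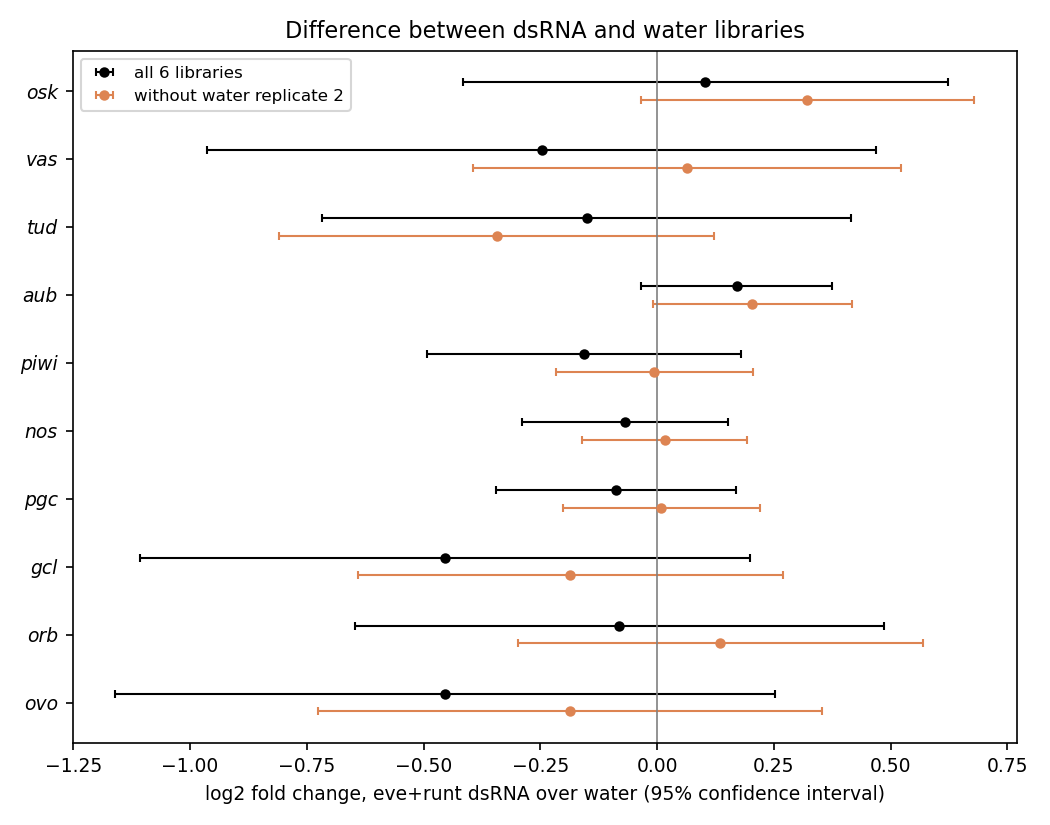
Log2 fold changes of dsRNA over water libraries (horizontal axis) for the 10 genes, with 95% confidence intervals from limma. Black points use all 6 libraries and orange points leave out water replicate 2. All intervals include 0, and nos, pgc, vas and orb change sign between the fits.

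The members differed in how far they varied between libraries, whichever group these belonged to. For nos, pgc, aub and piwi the highest library was less than 1.5-fold above the lowest. For gcl, ovo and vas it was 2.57-fold, 2.41-fold and 2.25-fold above. The log2 range of gcl over the 6 libraries, 1.36, was wider than that of 76.5% of all genes, and that of nos, 0.30, was wider than that of 28.1%. The median log2 range of all genes was 0.66. In 9 of 10 members the variation within each group exceeded the counting error at the lowest read count. The fewest reads behind any member value were 267, for orb in dsRNA replicate 3, a counting error of 6.12%, while its values varied by 11.3% in dsRNA and 29.4% in water (coefficient of variation). For pgc the 1.99% variation among dsRNA libraries was below the counting error of 3.33% at its lowest read count.

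Water replicate 2 was the highest of the 6 libraries for 8 of 10 members, against 32% of all genes, and the exceptions were aub and tud. The lowest library was dsRNA replicate 1 for 4 members (vas, piwi, gcl and ovo), against 22.2% of all genes, and water replicate 1 for another 4 (nos, pgc, aub and orb), against 5.53%. Each gene was set against its own 6-library mean on the log2 scale, and the median of these deviations over the members lay at −0.17, −0.08 and 0.06 in dsRNA replicates 1 to 3, and at −0.12, 0.38 and −0.02 in water replicates 1 to 3. By the same measure a list of 13 maternal RNAs, among them bcd, smg, swa and gnu, lay at −0.22, −0.05 and 0.10 in dsRNA replicates 1 to 3, and at −0.10, 0.24 and −0.05 in water replicates 1 to 3. The 9 zygotic genes of the blastoderm, among them slam, nullo, sna and twi, lay at 0.38, 0.20 and −0.20 in dsRNA, and at 0.02, −0.45 and 0.10 in water. The 9 later zygotic genes, among them en, wg, Antp and Abd-B, lay at −0.31, −0.06 and 0.64 in dsRNA, and at 0.28, −1.54 and 0.82 in water. Between the groups 0 genes of these 3 lists passed with all libraries. Without water replicate 2 nullo, needed for the furrows of cell formation, was higher (log2 0.93 ± 0.09, SE; limma adjusted p = 0.0293) and the pair-rule gene ftz was lower (log2 −1.10 ± 0.08, SE; limma adjusted p = 0.00335). Including that library, nullo stood at 0.81 ± 0.12 (SE; limma adjusted p = 0.627) and ftz at −0.73 ± 0.30 (SE; limma adjusted p = 0.999). In water replicate 2 ftz had 2030 normalised counts, inside the 1971 to 2132 of the dsRNA libraries. Water replicates 1 and 3 had 4364 and 4446. With all libraries the lowest p-values of the maternal list were those of plu and gnu, regulators of the early cell cycles, at −0.43 ± 0.20 and −0.69 ± 0.34 (log2 fold change, SE), and without water replicate 2 they stood at −0.24 ± 0.15 and −0.36 ± 0.26. Those of the later zygotic list were hh and vnd, at 1.29 ± 0.44 and 0.53 ± 0.26, and at 0.84 ± 0.29 and 0.27 ± 0.17 without that library. Across the later zygotic list, however, 5 of 9 log2 fold changes were negative with all libraries (all genes 50.5%), with a median of −0.09. Without water replicate 2 the number was 7 of 9 (all genes 56.6%), with a median of −0.46. The part of embryo stage in the members' values was not tested. As a check for ovarian tissue, 12 eggshell and yolk-protein genes were listed, of which 3 were measured and 9 had no matching row. Of the 3, Vml had 0 to 5.32 normalised counts in dsRNA libraries and 0.993 to 2.57 in water libraries. Yp3 had 7.45 to 8.38 in dsRNA and 3.86 to 10.9 in water, and Cp18 had 6.39 to 17.7 in dsRNA and 1.29 to 18.1 in water.

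**Figure D3:**
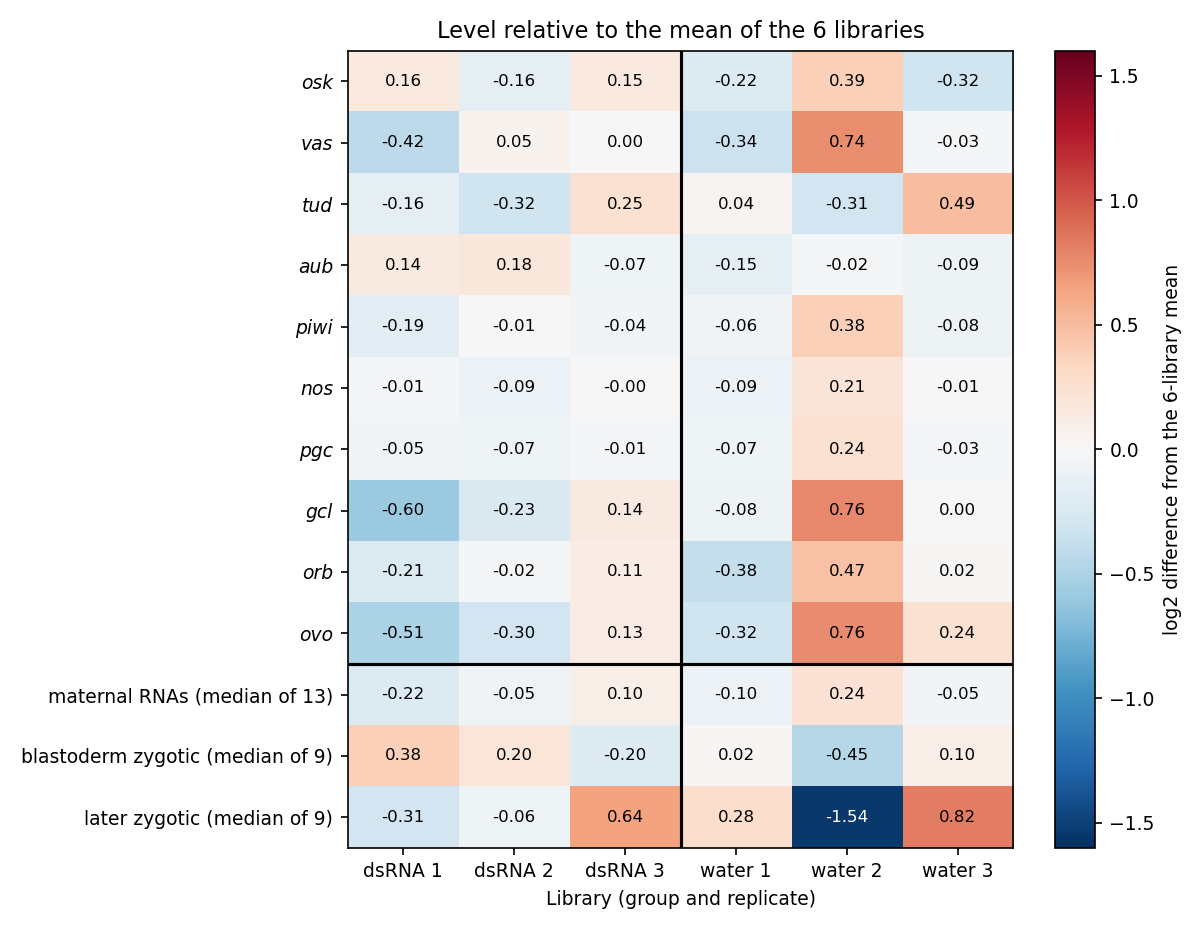
Log2 difference of each gene from its own mean over the 6 libraries (color and printed values), with genes in rows and libraries in columns, dsRNA left of the black line and water right of it. The rows under the horizontal line are medians of 13 maternal, 9 blastoderm zygotic and 9 later zygotic genes. Water replicate 2 reaches 0.76 for gcl and ovo and −1.54 for the later zygotic list.

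Pairs of members were compared by the root mean square difference of these log2 deviations over the 6 libraries. The nearest pair was nos and pgc, at 0.03, followed by pgc and piwi at 0.09. The pair farthest apart was vas and tud, at 0.55. Among all genes, the closest to gcl were CG12236 at 0.04 and CG14883 at 0.04, and the closest to ovo were CG12948 at 0.06 and mim at 0.07. For vas the closest were Gasz at 0.03 and CanB2 at 0.07. Gasz had 352, 468 and 457 normalised counts in dsRNA replicates 1 to 3, against 364, 791 and 458 in water replicates 1 to 3. With 6 libraries, of which water replicate 2 lies far out, such likeness describes these libraries only.

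Levels between genes were compared as normalised reads per kb of exon, using exon lengths of the BDGP6 annotation. Exons of genes on the other strand overlap 11.4% (CG11779) and 4.43% (Nsun5) of the nos exon bases, 6.21% of those of piwi (SCAR) and 2.62% of those of aub (TTLL4A). By the mean over the 6 libraries the order was gcl, aub, nos, pgc, piwi, vas, osk, tud, ovo and orb. By these means the first 5 were above the median of all genes, which was 247.7 per kb, and the last 5 below it. The most abundant, gcl, had 1396 ± 356 per kb in dsRNA and 1940 ± 670 in water, and aub had 1529 ± 141 in dsRNA and 1356 ± 63.0 in water (SD, n = 3 each). The least abundant, orb, had 35.2 ± 3.97 per kb in dsRNA and 38.2 ± 11.2 in water. The ranges over 6 libraries of gcl, aub, nos and pgc overlapped between neighbours in the order, as did those of vas, osk, tud and ovo. Within libraries, pgc was nevertheless below gcl, aub and nos in 6 of 6, vas was above tud and ovo in 6 of 6, and osk was above ovo in 6 of 6. For pgc, T3dh on the other strand overlaps 46.95% of the exon bases, and the per-kb level of pgc divides by all of them. If reads on shared bases were counted for neither gene, that level is too low. The place of pgc relative to gcl, aub and nos is therefore not settled by these values. On the same strand, lncRNA:osk shares 78.5% of the osk exon bases and solo 24.6% of those of vas. The per-kb levels of osk and vas may be too low if shared reads were left out. They may be too high if such reads were all counted for osk or vas. The places of osk and vas, also relative to the median of all genes, are likewise not settled. The orders among gcl, aub and nos, of vas and osk, of osk and tud, and of tud and ovo changed between libraries. The range of pgc did not overlap that of piwi, nor that of piwi the range of vas, nor that of ovo the range of orb. In the leading place gcl stood in dsRNA replicate 3 and in all 3 water libraries, and aub in dsRNA replicates 1 and 2. The ratio of gcl to nos, both per kb, was 0.862, 1.17 and 1.43 in dsRNA replicates 1 to 3, against 1.30, 1.90 and 1.30 in water replicates 1 to 3.

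**Figure D4:**
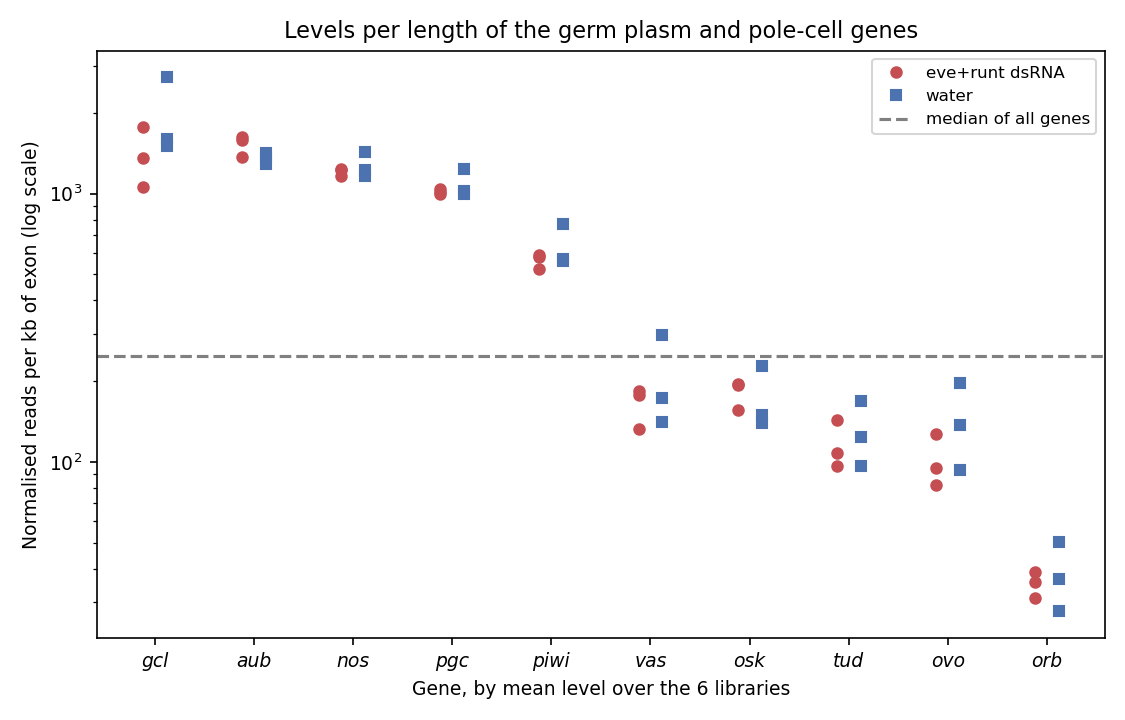
Normalised reads per kb of exon (vertical axis, log scale) for the 10 genes in order of mean level, with red circles for dsRNA libraries and blue squares for water libraries. The dashed line is the median of all genes, 247.7. All points of gcl, aub, nos, pgc and piwi lie above it, as does vas in water replicate 2, at 297.9.

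Related genes likewise showed no member past the threshold. Of 23 genes of the piRNA pathway, which includes the nucleases, helicases and Tudor proteins that make and use piRNAs, 0 passed in either direction. Positive values were found for 14 and negative values for 9, against 50.5% negative among all genes, and the median log2 fold change was 0.04. The helicase gene armi had 318, 354 and 524 normalised counts in dsRNA replicates 1 to 3, against 418, 847 and 463 in water replicates 1 to 3, and its log2 fold change was −0.49 ± 0.32 (SE; limma adjusted p = 0.999), or −0.17 ± 0.22 without water replicate 2. The nuclease gene zuc averaged 1861 ± 199 in dsRNA and 1680 ± 67.2 in water (SD, n = 3 each), for a log2 difference of 0.14 ± 0.10, or 0.13 ± 0.11 without that library. In 17 of the 23 genes water replicate 2 was above both other water libraries, against the 42.6% of all genes given above.

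Of 20 genes that transport osk RNA or control its translation, 0 passed and the median log2 fold change was −0.14. Staufen (stau), a double-stranded RNA-binding protein that carries osk RNA to the posterior pole, was the member of this list whose groups did not overlap. It had 13705, 14630 and 13953 normalised counts in dsRNA replicates 1 to 3, against 15012, 16859 and 15244 in water replicates 1 to 3. All 3 dsRNA values were below all 3 water values, as for 3.36% of all genes, and the log2 fold change was −0.15 ± 0.06 (SE; limma adjusted p = 0.999), or −0.10 ± 0.06 without water replicate 2. The actin nucleator gene spir averaged 1094 ± 185 in dsRNA and 1552 ± 602 in water (SD, n = 3 each), for a log2 difference of −0.45 ± 0.27, or −0.15 ± 0.16 without that library.

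Among 10 other genes of germ plasm and pole cells 0 passed, and the median log2 fold change was −0.12. Negative values were found for 8, against 50.5% of all genes, and for 8 also without water replicate 2, against 56.6%. The gap-junction gene zpg, needed for germ-cell survival, averaged 276 ± 80.7 in dsRNA and 417 ± 186 in water (log2 −0.55 ± 0.35, SE), and the chaperone gene Hsp83 averaged 9622 ± 1614 in dsRNA and 11767 ± 1833 in water (log2 −0.29 ± 0.15, SE; SD and n = 3 each for both genes). Of 7 genes of Nanos-Pumilio repression and maternal RNA decay 0 passed, with a median of −0.10. The deadenylase gene twin averaged 2653 ± 541 in dsRNA and 3416 ± 810 in water (log2 −0.36 ± 0.21, SE), and bcd, the anterior maternal determinant, averaged 3967 ± 924 in dsRNA and 4626 ± 1352 in water (log2 −0.21 ± 0.24, SE). Of 8 genes that act later in germ cells 0 passed, with a median of −0.11. There, mamo averaged 33.8 ± 11.2 in dsRNA and 19.6 ± 1.98 in water (log2 0.70 ± 0.33, SE), and otu averaged 1331 ± 341 in dsRNA and 1994 ± 822 in water (log2 −0.54 ± 0.31, SE). By limma the adjusted p of these 6 genes was 0.999 each. Without water replicate 2 their log2 fold changes were −0.21 ± 0.24 for zpg, −0.34 ± 0.16 for Hsp83, −0.18 ± 0.18 for twin, −0.23 ± 0.21 for otu and 0.78 ± 0.35 for mamo (SE). The value of bcd was then 0.02 ± 0.18, so its sign turned with that library.

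Without water replicate 2, 0 of the 10 genes and 0 genes of these 5 lists passed the threshold, beside 0.0441% of all genes (noc, tsg, nullo and ftz). The medians of the log2 fold changes were then 0.07 for the piRNA pathway, −0.01 for osk RNA transport and translation, −0.07 for other germ plasm and pole-cell genes, 0.04 for the Nanos and decay genes and −0.03 for later germline genes. The sign of the median of the Nanos and decay list turned with that library, as it did for the 10 genes themselves.

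**Figure D5:**
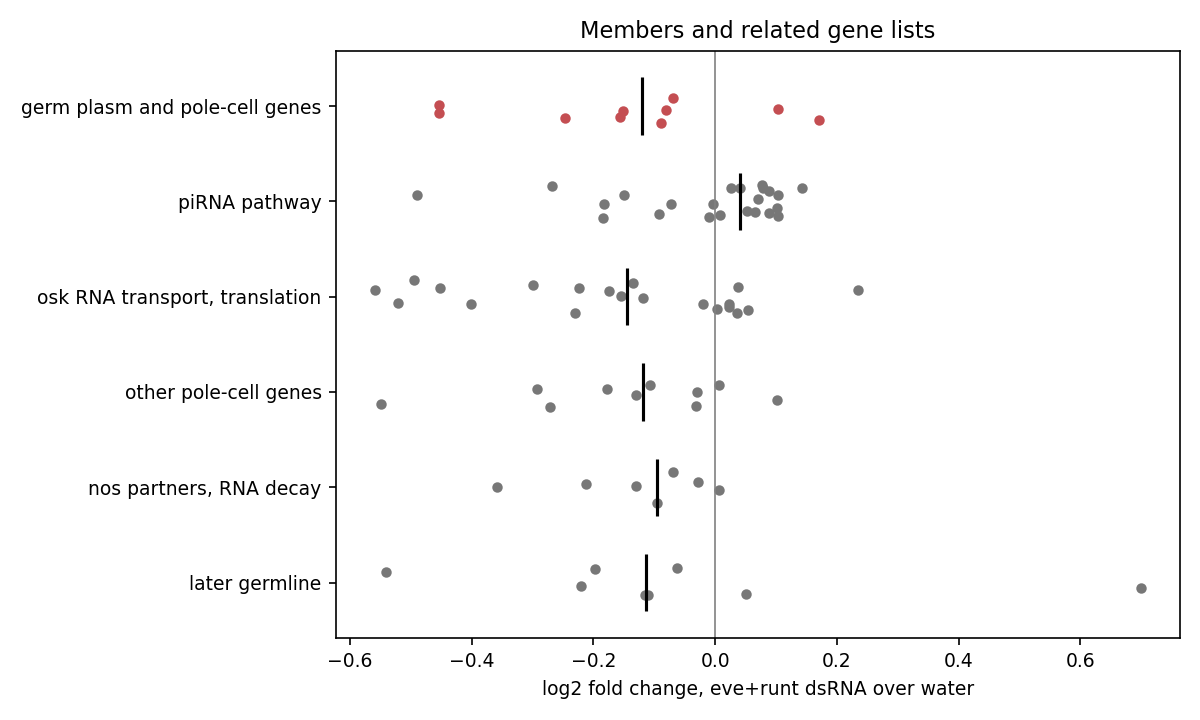
Log2 fold changes of dsRNA over water libraries (horizontal axis) for the 10 germ plasm and pole-cell genes in red and for the genes of 5 related lists in grey, all 6 libraries used. Each point is a gene, its height within a row has no meaning, and black lines are list medians, which run from −0.14 to 0.04.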

How the data were processed

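RNA-seq of whole embryos was analysed from 6 libraries, grouped and numbered by their titles; 0 columns belonged to other samples. Tools named in the submitters' processing notes are HTSeq, DESeq, Bowtie2 and TopHat2 (version 2.0.9), with genome build dm3 and no settings. Which annotation was used, and whether counting was stranded, is not given in the sources used here. As deposited, the values are a normalised signal for every gene, made by the authors. In each library the value minus 1 was a whole multiple of 1 step (100% of values within 0.01 read), so each is a read count divided by a library factor, with 1 added. The 3 rows that name no gene stayed out; they hold reads not uniquely aligned, ambiguous reads and reads on no feature. Ambiguous reads were 0.72 to 0.75% of the listed reads of a library. Symbols came from a RefSeq table (9027 of 9073 identifiers matched), and positions and exon lengths from BDGP6, which differs from dm3.

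The deposited values (normalised count + a pseudocount of 1) were tested as log2 values with limma 3.58.1 in R 4.3.3 (trend and robust), with Benjamini-Hochberg adjustment over 9073 genes and no filter. The test was run on simulated counts with the same dispersion for all genes and no outlying library. That check does not cover the spread between libraries seen here. Alternatives were limma-voom, a pseudocount of 5, a mean of at least 5 CPM, upper-quartile scaling, library quality weights, the replicate number as a block and leaving out each library. Count models were planned only if the table were accepted as read counts, and were not run. Since the labels do not describe separate injection days, p-values reflect only how far these embryo collections differed. Replicate numbers are shared between groups. Deviations of same-numbered libraries from their group means correlated at 0.24, 0.37 and 0.22 across genes, all over 0.1. They were therefore taken as pairs in the block fit, while the main fit was unpaired. Among differently numbered libraries, dsRNA replicate 1 and water replicate 3 also passed 0.1, at 0.11, and the others lay at −0.38 to −0.04. Counting errors cover counting only.

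The members and lists were chosen with earlier results of these data known. Some lists share genes, so their medians are not independent. The gene pum is in the other pole-cell list and the Nanos and decay list. The maternal list shares bcd and smg with the Nanos and decay list, and Hsp83 and CycB with the other pole-cell list. It shares exu and swa with the osk RNA list. All members are named; from each related list the genes past the threshold are named, or otherwise the 2 with the lowest p, and for the 3 members with the widest range the 2 nearest genes.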

Additional observations from a re-analysis of the deposited data

How the results depend on the processing

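Of the 10 genes 0 passed the threshold in all 12 alternatives, and the lowest adjusted p was 0.248 (limma with library quality weights, aub, log2 0.27 ± 0.06). Of 120 values of single members under alternatives, 110 kept their direction. The other 10 turned. With quality weights nos stood at 0.0101, orb at 0.191 and vas at 0.119. On leaving out a library, log2 fold changes ran from −0.134 to 0.016 for nos, −0.289 to 0.136 for orb, −0.0302 to 0.322 for osk, −0.148 to 0.0089 for pgc, −0.343 to 0.0564 for tud and −0.479 to 0.0635 for vas. Those that kept their sign ran from −0.725 to −0.187 for ovo, −0.640 to −0.186 for gcl, −0.237 to −0.006 for piwi and 0.121 to 0.248 for aub. Without dsRNA replicate 1 orb stood at 0.0055. The median of the members ran from −0.20 to 0.01 on leaving out a library. The cause was not tested.

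The count of all genes past the threshold, 1 with all libraries, was 3 with limma-voom, 5 with library quality weights, 0 with the replicate block and 0 to 4 on leaving out a library. The block changed no other call. Across the 9 related and stage lists the count, 0 with all libraries, was 1 (nullo) with quality weights and 0 to 2 on leaving out a library, the 2 being nullo and ftz without water replicate 2. The confidence intervals given for each gene are from the fit without the block, and 3 libraries per group limit their precision. With the block the lowest unadjusted limma p of a member was 0.0708, for aub. Its unadjusted limma p was 0.028 with limma-voom, 0.0017 with quality weights and 0.0121 without dsRNA replicate 3. In these 3 fits 285, 1226 and 560 of 9073 genes had one under 0.05, and aub was the only member.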
